A study of Mus musculus with 12 samples.

Results

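The 10 genes described here encode the precursors of neuropeptides that sensory neurons are known for. They were taken by symbol from a table of 24490 genes measured by RNA-sequencing in dorsal root ganglia (DRG), the ganglia beside the spinal cord that hold the cell bodies of the sensory neurons of body and limbs. The genes are Calca and Calcb, which encode the alpha and beta forms of calcitonin gene-related peptide (CGRP), Tac1 (substance P and neurokinin A), Adcyap1 (PACAP), Gal (galanin), Sst (somatostatin), Nppb (B-type natriuretic peptide), Nts (neurotensin), Npy (neuropeptide Y) and Vip (vasoactive intestinal peptide). All 10 symbols had 1 row each.

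Ganglia came from adult C57Bl/6 mice, and no mouse carried a transgene or received a treatment. Intact DRG were frozen whole, unsorted DRG were dissociated with enzymes and frozen at once, and MACS-sorted DRG were dissociated and then depleted of cells that bound an antibody mixture against non-neuronal cells. Each group had 4 samples, and a sample pooled material of 1 mouse when intact, 2 mice when unsorted and 8 mice when MACS-sorted. Pooling and preparation changed together between the groups and cannot be told apart. Expression is given in FPKM, fragments per kilobase of transcript scaled to the mapped fragments of the library, which is a level per length of transcript. In these bulk samples, fewer cells of a type and less RNA per cell cannot be told apart. An estimate from the lowest FPKM values put the depth at 16300000 to 19400000 fragments for intact DRG, 15750000 to 18450000 for unsorted and 13500000 to 17100000 for sorted DRG.

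Neuropeptides are made as longer precursors, which are cut and modified in the secretory pathway and stored in dense-core vesicles. Peptidergic nociceptors, small neurons that respond to noxious stimuli, release CGRP and substance P both in the spinal cord and at their endings in the skin, where CGRP widens blood vessels and substance P makes vessels leak. Sst and Nppb mark a separate class of small neurons involved in itch, in which Nts is also expressed. Gal, Npy, Vip and Nts are best known in DRG as genes induced after nerve injury.

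In the mm10 assembly, the locus of Calca lies at chr7:114631478-114636357 and that of Calcb at chr7:114718643-114723365, so that the CGRP genes are neighbours on one chromosome. The locus of Tac1 lies at chr6:7555071-7562973 and that of Npy at chr6:49822729-49829505. Adcyap1 is at chr17:93199422-93205489, Gal at chr19:3409917-3414457, Sst at chr16:23889581-23890844 and Nppb at chr4:147985788-147987205. Vip lies at chr10:5639218-5647614 and Nts at chr10:102481756-102490418. Most of these transcripts are short. The longest protein-coding transcript is 0.72 kb for Sst, 0.78 kb for Nppb, 0.99 kb for Calca and 1.25 kb for Nts, whereas that of Adcyap1 reaches 3.39 kb.

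The 250 bases before the RefSeq start (GRCm38.p6) are shown for Sst, Nppb and Nts, the genes that differed most between preparations, and for Calca, the most abundant member. They are written on the strand of the gene, 5′ to 3′, at chr16:23890845-23891094 (minus strand), chr4:147985650-147985899 (plus strand), chr10:102490419-102490668 (minus strand) and chr7:114636358-114636607 (minus strand). For Nppb the locus in the deposited table begins ahead of this RefSeq start, so that the last 112 bases of its window lie inside that locus, whereas the other 3 windows lie outside theirs. Capitals mark the cAMP response element TGACGTCA and its half-site TGACG, on either strand.
Sst: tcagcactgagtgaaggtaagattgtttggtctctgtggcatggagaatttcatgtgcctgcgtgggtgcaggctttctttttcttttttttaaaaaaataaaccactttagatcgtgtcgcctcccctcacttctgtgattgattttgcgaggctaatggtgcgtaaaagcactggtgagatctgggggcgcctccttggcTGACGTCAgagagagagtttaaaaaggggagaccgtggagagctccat
Nppb: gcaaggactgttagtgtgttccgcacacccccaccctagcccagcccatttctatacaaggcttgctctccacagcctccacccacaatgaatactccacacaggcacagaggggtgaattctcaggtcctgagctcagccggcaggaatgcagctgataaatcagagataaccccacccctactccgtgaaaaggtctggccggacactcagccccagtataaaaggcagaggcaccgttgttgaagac
Nts: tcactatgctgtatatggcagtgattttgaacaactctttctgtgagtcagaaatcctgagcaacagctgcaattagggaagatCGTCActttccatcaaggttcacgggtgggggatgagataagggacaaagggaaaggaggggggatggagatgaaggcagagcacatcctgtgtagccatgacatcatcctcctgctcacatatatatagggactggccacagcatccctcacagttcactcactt
Calca: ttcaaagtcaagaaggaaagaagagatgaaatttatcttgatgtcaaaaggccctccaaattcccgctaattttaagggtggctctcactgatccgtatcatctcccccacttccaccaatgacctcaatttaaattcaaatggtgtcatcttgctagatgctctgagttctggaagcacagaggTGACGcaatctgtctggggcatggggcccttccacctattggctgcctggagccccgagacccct

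The full element TGACGTCA, to which CREB binds, was found in 1 of the 9 members with an upstream sequence, Sst, where it begins at position -48 from the start. It occurs in 1.77% of the 27025 genes with an upstream window of this length in the reference. The half-site TGACG, which every full element also contains, was present in 6 of the 9, namely Calca, Tac1, Adcyap1, Sst, Vip and Nts, against 19.79% of all these genes. TGACTCA, the motif of AP-1, was found in Nts, against 5.16% of all these genes. TATAAA was found in Adcyap1, Nppb and Vip, against 14.33% of all these genes, and in Nppb it begins at position -31. All motifs were searched on both strands, and these matches of letters are descriptions.

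Several samples stood apart from their groups. Intact replicate 1 held 2947 FPKM summed over 8 skeletal muscle markers, against 77.2 to 119 FPKM in the other intact samples, with all 8 markers above 0 somewhere in the series and Pvalb, which large-diameter neurons also express, the most abundant over all samples. In the same sample, 363 genes with transcripts of up to 1 kb lay at a median of 1.67 times the median of the other intact samples, whereas 1862 genes with transcripts over 4 kb lay at a median log2 difference of -0.27. All 8 neuropeptide genes above the filter on low values were highest in this sample within its group. The part of muscle RNA and of transcript length in these high values was not tested, and the tests of the 8 genes against intact DRG are given with and without this sample.

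MACS-sorted replicate 1 was the highest of its group for 7 of the 8 genes and MACS-sorted replicate 4 the lowest for 6 of the 8. The summed level of 9 red blood cell markers was 1491, 2004, 9961 and 12812 FPKM in the sorted replicates 1 to 4, against 96.7 to 337 FPKM in unsorted samples. Hbb-bs, a beta-globin, had the highest mean of them over all 12 samples, and Hba-a1 was listed at 0 in every sample. Removal of these genes followed by rescaling gave 5 of the 8 neuropeptide genes called higher in MACS-sorted than in unsorted DRG, against 4 with these genes kept. Of all genes, 8.15% were called higher with these genes kept, and 260 to 1382 genes over the 14 alternatives, of which this removal is one.

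Unsorted replicates 1 and 2 were the most alike of all pairs within a group. Over 3878 genes their log ratios spread 1.24 times as far as counting noise at the estimated depth would give, against 1.83 to 2.8 times for the other unsorted pairs, and they were kept as separate samples. Without unsorted replicate 1, 3 neuropeptide genes were called higher in MACS-sorted DRG, with adjusted p = 0.013 for Nppb and 0.0029 for Nts in limma, whereas Sst no longer passed (adjusted p = 0.078). Of all genes, 8.15% were called higher with all samples, and 923 to 1019 genes with 1 sample left out.

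The levels of the neuropeptide genes reached from Calca among the most abundant transcripts of the ganglion to Vip close to the limit of detection. By group mean, Calca ranked 8 of 24490 genes in intact DRG, and its rank was 10 in unsorted and 16 in sorted DRG. Tac1 and Calcb followed, and Tac1 exceeded Calcb in 11 of the 12 samples, although the spreads of both genes within groups overlapped. Adcyap1 came next and exceeded Gal in all 12 samples. The order of Gal, Sst and Nppb changed between preparations. Nppb exceeded Sst in all 4 intact samples, whereas Sst exceeded Nppb in all 4 unsorted samples and in 3 of the 4 MACS-sorted samples. Nts lay below Sst and Nppb in all 12 samples. The 10 genes together made up 0.439% to 0.751% of all FPKM for intact samples, 0.399% to 0.469% for unsorted and 0.368% to 0.595% for sorted samples.

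**Figure D1:**
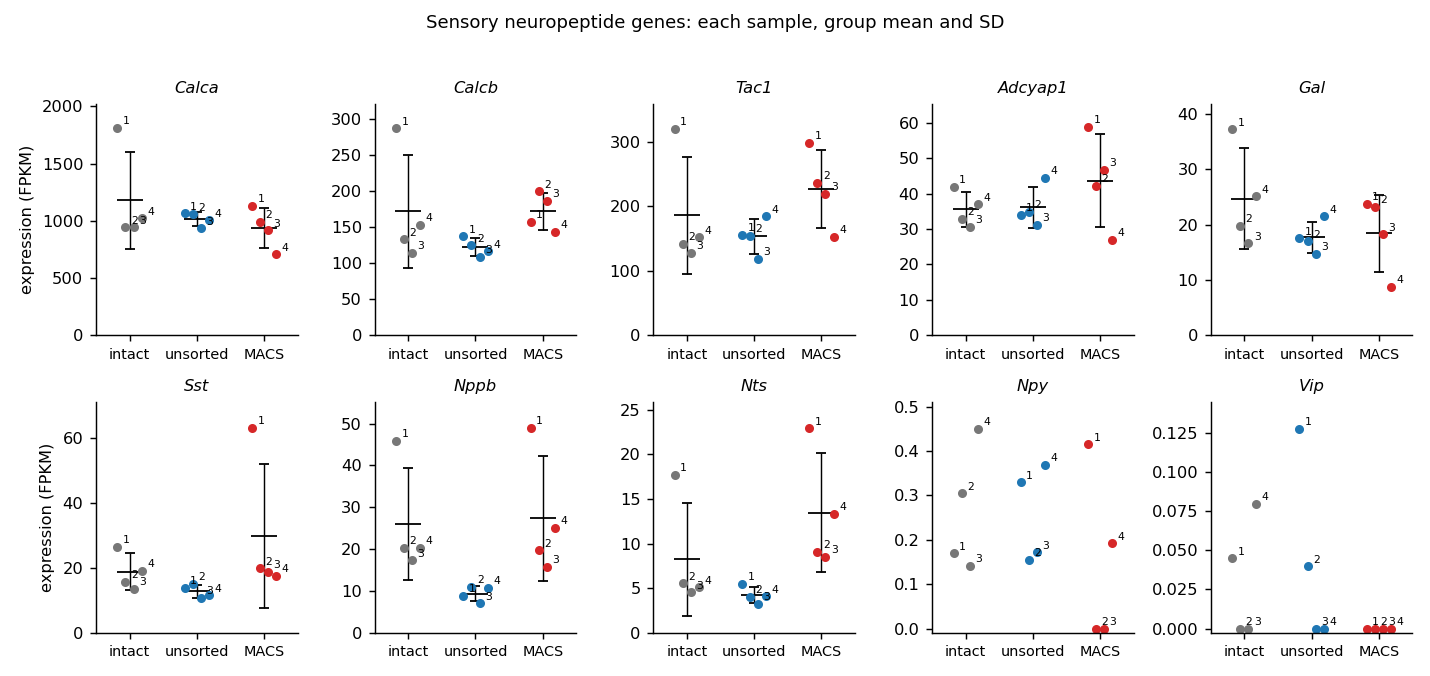
Expression in FPKM (linear axes, 1 panel per gene) of the 10 neuropeptide genes in the 4 intact, 4 unsorted and 4 MACS-sorted samples, with the replicate number beside each point and the group mean ± SD as bars (no bars for Npy and Vip, which lie near 0). Intact replicate 1 is the highest intact sample for all genes but Npy and Vip, and Nppb, Nts and Sst are higher in each MACS-sorted sample than in any unsorted one.

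Sorting was examined by comparing MACS-sorted with unsorted DRG. Nppb, Nts and Sst were 2.92-fold, 3.19-fold and 2.32-fold higher in MACS-sorted DRG by the ratio of group means, and Calcb and Tac1 were 1.41-fold and 1.48-fold higher, whereas Calca, Adcyap1 and Gal did not pass the test. Without MACS-sorted replicate 1 these ratios were 2.15 for Nppb, 2.44 for Nts, 1.46 for Sst, 1.45 for Calcb and 1.32 for Tac1, and Tac1 did not pass (adjusted p = 0.12). Of the 10 genes, 8 exceeded the filter of a mean of 1 FPKM and were tested, and 5 of these had a higher level at an adjusted p under 0.05 in limma with Benjamini-Hochberg adjustment over 12038 genes, against 18.8% of all genes tested in this direction. None was lower, also at an unadjusted p under 0.05, against 27.7% of all genes. A gene was further called where the log2 ratio of means went beyond 0.5 and the group with more reached 5 FPKM on average, and 4 were called higher, against 8.15% of all genes. For Calcb, Sst, Nppb and Nts the lowest sorted sample exceeded the highest unsorted one, as for 18.4% of all genes, and none of the 8 showed the opposite, as for 27.8%. The median log2-fold change of the 8 genes was 0.52, and that of all genes tested was -0.04.

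Calca, which encodes the predominant CGRP of sensory neurons, was expressed at 1129, 992, 917 and 708 FPKM in the sorted replicates 1 to 4, and at 1066, 1056, 933 and 1003 FPKM in unsorted replicates 1 to 4. The groups overlapped, and MACS-sorted replicate 4 was the lowest of all 12 samples. On the log2 scale Calca differed by -0.13 (standard error 0.139, adjusted p = 0.46), and with scaling to pan-neuronal markers by -0.25 (adjusted p = 0.045).

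Calcb, the gene of beta-CGRP, was expressed at 157, 199, 186 and 143 FPKM in MACS-sorted and at 137, 125, 108 and 116 FPKM in unsorted samples. Sorted and unsorted samples did not overlap. The difference was 0.49 on the log2 scale (standard error 0.117, adjusted p = 0.0069), and the log2 ratio of group means stood just under the criterion of 0.5, at 0.496. This adjusted p rose to 0.10 when all 12 samples were fitted together. The transcripts of Calca and Calcb share no stretch of 100 bases, the length of a read, but they share 12 words of 50 bases, which may overlap, and reads that fall in part on these could be divided between them by the alignment.

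Within the CGRP pair, the ratio of Calca to Calcb was 7.19, 4.98, 4.93 and 4.94 in MACS-sorted replicates 1 to 4 and 7.78, 8.47, 8.62 and 8.63 in unsorted replicates 1 to 4. In intact DRG it was 6.33, 7.12, 8.23 and 6.69. MACS-sorted and unsorted samples did not overlap in this ratio, with replicate 1 nearest to the unsorted samples, and the intact samples lay across the gap between them.

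Tac1 was expressed at 299, 237, 220 and 152 FPKM in MACS-sorted and at 156, 155, 118 and 185 FPKM in unsorted samples. Replicates 1 to 3 of the MACS-sorted group lay above all unsorted samples, and replicate 4 fell among them. Tac1 differed by 0.54 on the log2 scale (standard error 0.199, adjusted p = 0.048). This call was lost in 6 of the 8 fits that left out 1 sample, among them the fit without MACS-sorted replicate 1 (0.40, adjusted p = 0.12), and Tac1 was called in 6 of the 14 other settings.

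The ratio of Tac1 to Calca separated the MACS-sorted samples from all others. It was 0.265, 0.238, 0.240 and 0.215 in MACS-sorted replicates 1 to 4, between 0.127 and 0.184 in unsorted and between 0.136 and 0.177 in intact samples. Calca accordingly took a smaller part of the summed FPKM of the 10 genes, 62.6% to 64.6% in MACS-sorted samples against 71.8% to 76.1% in unsorted and 70.0% to 74.3% in intact samples. Both ratios are within a sample and so do not depend on the scaling between samples. They were picked after their values were seen and are given without a test.

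**Figure D2:**
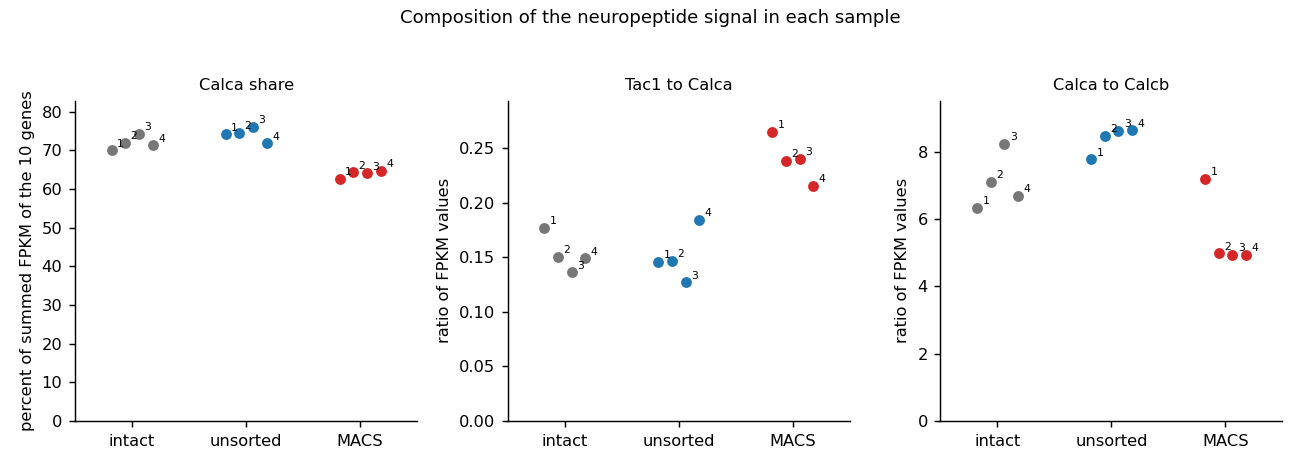
Composition of the neuropeptide signal in each sample, with linear axes from 0 and the replicate number beside each point. The Calca share of the summed FPKM (left, percent) is lowest and the ratio of Tac1 to Calca (middle) highest in the 4 MACS-sorted samples, and the ratio of Calca to Calcb (right) is lower in each sorted sample than in any unsorted one.

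Adcyap1 encodes PACAP, a peptide of the secretin family. It was expressed at 58.9, 42.3, 46.7 and 26.9 FPKM in MACS-sorted and at 34.1, 34.9, 31.2 and 44.6 FPKM in unsorted samples. The groups overlapped, with MACS-sorted replicate 4 below every unsorted sample, and the log2-fold change of 0.23 did not pass the test (standard error 0.213, adjusted p = 0.41). It ranged from 0.0688 without MACS-sorted replicate 1 (adjusted p = 0.80) to 0.44 without MACS-sorted replicate 4, the 1 of the 8 fits with a sample left out in which Adcyap1 passed (adjusted p = 0.03).

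Gal, which is induced in injured sensory neurons, was expressed at 23.7, 23.2, 18.2 and 8.68 FPKM in MACS-sorted and at 17.5, 17.0, 14.7 and 21.5 FPKM in unsorted samples. The groups overlapped, and MACS-sorted replicate 4 was again the lowest sample of the series. The difference was -0.03 on the log2 scale (standard error 0.287, adjusted p = 0.95), and its sign changed with the scaling between samples.

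Sst, the somatostatin gene, was expressed at 63.1, 19.9, 18.8 and 17.5 FPKM in MACS-sorted and at 13.96, 15.1, 10.7 and 11.6 FPKM in unsorted samples. All MACS-sorted samples were above all unsorted samples, and replicate 1 was far above every other sample of the series. Sst differed by 0.99 on the log2 scale (standard error 0.365, adjusted p = 0.049). Without MACS-sorted replicate 1 it was 0.55 (adjusted p = 0.0074), while the adjusted p was no longer under 0.05 in 5 of the 8 fits that left out 1 sample.

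Nppb, whose peptide is required in mice for many forms of itch, was expressed at 49.0, 19.7, 15.7 and 25.1 FPKM in MACS-sorted samples. In unsorted samples it stood at 8.77, 10.97, 7.04 and 10.7 FPKM. There was no overlap between the groups, and the lowest MACS-sorted sample lay above the highest unsorted sample. Nppb differed by 1.42 on the log2 scale (standard error 0.309, adjusted p = 0.0042), and it was 1.09 without MACS-sorted replicate 1 (adjusted p = 0.0021).

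Nts, the neurotensin gene, was expressed at 22.9, 9.06, 8.49 and 13.3 FPKM in MACS-sorted and at 5.47, 4.05, 3.26 and 4.07 FPKM in unsorted samples. Again the groups did not overlap. The log2-fold change of 1.56 was the largest among the 8 genes in this comparison (standard error 0.293, adjusted p = 0.0018), and without MACS-sorted replicate 1 it was 1.26 (adjusted p = 0.0012). The calls of Nppb and Nts held in each of the 8 fits that left out 1 sample, where the log2-fold change ranged from 1.09 to 1.64 for Nppb and from 1.26 to 1.74 for Nts.

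**Figure D3:**
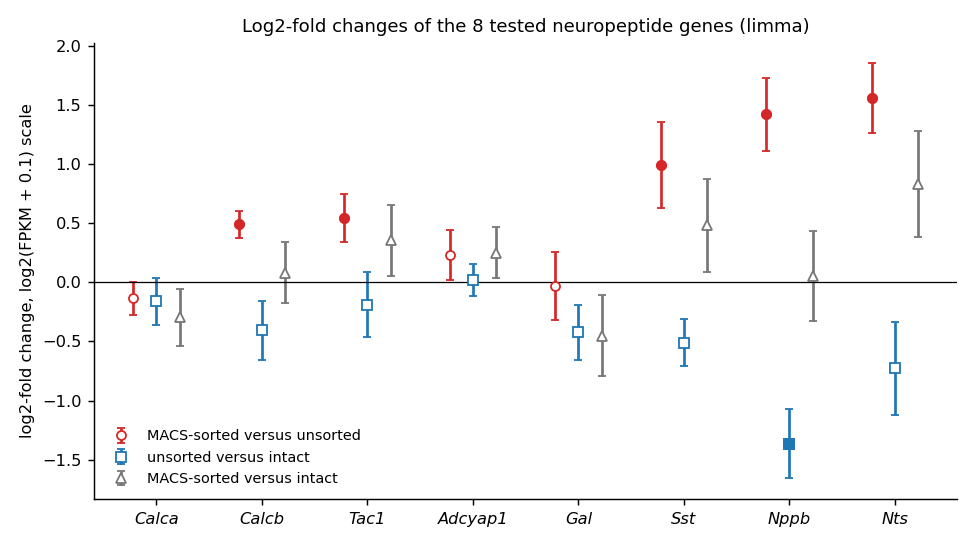
Log2-fold changes (points) ± standard error from limma on the log2(FPKM + 0.1) scale for the 8 neuropeptide genes tested, in 3 comparisons of 4 samples against 4, with filled symbols at an adjusted p under 0.05. In MACS-sorted against unsorted DRG 5 genes have filled symbols, all above 0, and in unsorted against intact DRG the only filled symbol is Nppb, below 0.

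Sst and Nppb neurons also carry the receptors through which they respond to itch mediators. Of 6 markers of this class, 4 were higher in MACS-sorted than in unsorted DRG and were called, Nts among them, and 2 did not pass the test, against 18.8% of all genes higher and 8.15% called higher. Il31ra, a receptor subunit for interleukin-31, was expressed at 31.0, 9.91, 9.59 and 12.8 FPKM in MACS-sorted and at 4.93, 4.69, 4.97 and 6.02 FPKM in unsorted samples, with a difference of 1.42 on the log2 scale (standard error 0.325, adjusted p = 0.0054). Osmr, the partner subunit of Il31ra, was at 36.4, 16.3, 17.1 and 20.2 FPKM against 8.83, 9.15, 7.62 and 8.77 FPKM, a difference of 1.30 on the log2 scale (standard error 0.224, adjusted p = 0.0011).

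Cysltr2, a receptor for leukotrienes, stood at 19.4, 6.40, 7.03 and 9.50 FPKM in MACS-sorted against 4.45, 4.03, 3.31 and 4.26 FPKM in unsorted samples, a difference of 1.24 on the log2 scale (standard error 0.303, adjusted p = 0.0077). None of these receptors overlapped between the groups, as for 18.4% of all genes in this direction, and MACS-sorted replicate 1 was the highest sample for each. Without that replicate the log2-fold changes were 1.04 for Il31ra, 1.04 for Osmr and 0.90 for Cysltr2, and again 4 of the 6 markers were higher, against 18% of all genes in that fit. Htr1f, a serotonin receptor, and Jak1, a kinase downstream of cytokine receptors that many cell types express, had log2-fold changes of 0.44 and 0.04 with adjusted p = 0.40 and 0.88.

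**Figure D4:**
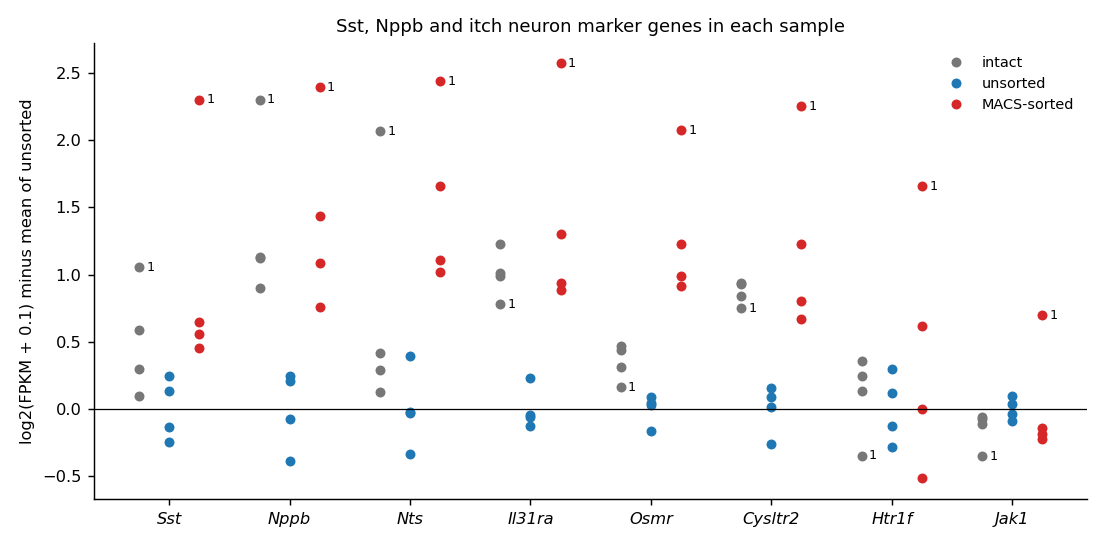
Each sample's log2(FPKM + 0.1) minus the mean of the 4 unsorted samples for Sst, Nppb and the 6 itch neuron markers, with replicate 1 of the intact and MACS-sorted groups marked 1. Sorted samples all lie above the unsorted samples for Sst, Nppb, Nts, Il31ra, Osmr and Cysltr2, with MACS-sorted replicate 1 highest. Intact replicate 1 is the highest of its group for Sst, Nppb and Nts but the lowest for the other 5 markers.

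Npy and Vip, which are induced after nerve injury, were at the limit of detection. Npy was listed at 0.169, 0.305, 0.141 and 0.450 FPKM in intact, at 0.330, 0.155, 0.172 and 0.369 FPKM in unsorted and at 0.415, 0, 0 and 0.192 FPKM in MACS-sorted samples. Vip was listed at 0.0448, 0, 0 and 0.0794 FPKM in intact and at 0.127, 0.0398, 0 and 0 FPKM in unsorted samples, and at 0 in all MACS-sorted samples. At the estimated depths the highest of these values corresponds to about 3.45 fragments for Npy and 3.04 for Vip. Both genes were below the filter in every comparison and were not tested, and a difference between preparations was not detectable at this depth.

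The effect of dissociation was examined by comparing unsorted with intact DRG. Of the 8 genes tested, 1 was lower at an adjusted p under 0.05, against 7.79% of all 12392 genes tested, and none was higher, also at an unadjusted p under 0.05, against 14.8%. None was called higher, against 4.29%, or lay above every intact sample, against 20.8%. That gene was Nppb, which was also called, against 2.76% of all genes called lower. Its level was 45.9, 20.2, 17.3 and 20.3 FPKM in intact replicates 1 to 4, so that every unsorted sample lay below every intact sample, a pattern that 12% of all genes showed. The difference was -1.37 on the log2 scale (standard error 0.290, adjusted p = 0.013), and without intact replicate 1 it was -1.05 (adjusted p = 0.00099), a fit in which 13.6% of all genes were lower and 2.56% were called lower. The 363 genes with transcripts of up to 1 kb had a median log2-fold change of -0.38, or -0.17 without intact replicate 1, and the part of transcript length in the fall of Nppb was not tested.

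The other 7 genes did not pass the test between unsorted and intact DRG. Nts was at 17.7, 5.55, 4.52 and 5.10 FPKM in intact replicates 1 to 4, and Sst at 26.6, 15.7, 13.6 and 19.1 FPKM. Their log2-fold changes were -0.72 (standard error 0.393, adjusted p = 0.21) and -0.51 (adjusted p = 0.099), and without intact replicate 1 they were -0.28 (adjusted p = 0.19) and -0.33 (adjusted p = 0.10). Gal, at 37.3, 19.7, 16.6 and 25.1 FPKM in intact samples, changed by -0.42 on the log2 scale (standard error 0.231, adjusted p = 0.21), which was -0.20 without that sample (adjusted p = 0.33).

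Calca was at 1815, 943, 941 and 1022 FPKM in intact replicates 1 to 4, and its log2-fold change was -0.16 (adjusted p = 0.58). Calcb was at 287, 133, 114 and 153 FPKM, with a log2-fold change of -0.41 (adjusted p = 0.26). Tac1 was at 321, 142, 128 and 152 FPKM, with a log2-fold change of -0.19 (adjusted p = 0.64). For these genes intact replicate 1 was far above the other intact samples, which in turn overlapped with the unsorted samples. Adcyap1, at 42.0, 32.9, 30.6 and 37.0 FPKM, varied less, and its log2-fold change was 0.02 (adjusted p = 0.93). Without intact replicate 1 the log2-fold changes were 0.0653 for Calca (adjusted p = 0.41), -0.13 for Calcb (adjusted p = 0.37), 0.11 for Tac1 (adjusted p = 0.54) and 0.10 for Adcyap1 (adjusted p = 0.52), so that Calca and Tac1 changed sign and none of the 4 passed the test. The median log2-fold change of the 8 genes was -0.42, and -0.17 without intact replicate 1. The median of all genes tested was 0.01, and 0.03 without that sample. For the 363 genes with transcripts of up to 1 kb these medians were -0.38 and -0.17. For the 1347 genes with transcripts of 1 to 2 kb they were -0.10 and -0.002. The part of transcript length in the changes of the 8 genes was not tested.

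Of the itch neuron markers, Il31ra was at 8.89, 12.1, 10.3 and 10.5 FPKM in intact samples, above every unsorted sample, and its log2-fold change in unsorted against intact DRG was -1.003 (standard error 0.113, adjusted p = 0.0016). Cysltr2 fell by 0.87 on the log2 scale (standard error 0.103, adjusted p = 0.0019), and Osmr, with -0.35 (standard error 0.0923, adjusted p = 0.029), passed the test without reaching the fold criterion. Of the 6 markers, 3 were lower, against 7.79% of all genes, and 3 did not pass the test, with the same counts when intact replicate 1 was left out, against 13.6%. Il31ra and Cysltr2 then had log2-fold changes of -1.08 and -0.91 and Osmr of -0.41 (adjusted p = 0.0039).

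The comparisons of MACS-sorted with unsorted and of unsorted with intact DRG share the unsorted samples, so that an error in those samples would enter both with opposite signs. MACS-sorted DRG were therefore also compared with intact DRG. None of the 8 genes passed the test in limma, in either direction, and none stood at an unadjusted p under 0.05, against 14.1% of 12234 genes higher and 20.6% lower at an adjusted p under 0.05. None was called, against 7.54% higher and 10.7% lower, and the groups overlapped for all 8, whereas 15.6% of genes were higher and 21.9% lower without overlap. The log2-fold change was 0.05 for Nppb (adjusted p = 0.93), 0.48 for Sst (adjusted p = 0.38) and 0.83 for Nts (standard error 0.450, adjusted p = 0.18). These values were, without MACS-sorted replicate 1, -0.27 (adjusted p = 0.57), 0.0432 (adjusted p = 0.90) and 0.54 (adjusted p = 0.40). With all samples, the 363 genes with transcripts of up to 1 kb had a median log2-fold change of -0.31, or -0.12 without intact replicate 1. For the 1347 genes with transcripts of 1 to 2 kb it was -0.09, or 0.0074 without intact replicate 1. The part of transcript length in this comparison was not tested.

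Without intact replicate 1, 2 of the 8 genes were higher in MACS-sorted than in intact DRG and were called, against 17.0% of 12104 genes higher at an adjusted p under 0.05 and 7.72% called higher in that fit. These were Nts, with a log2-fold change of 1.28 (adjusted p = 0.013), and Tac1, with 0.65 (adjusted p = 0.033). The other 3 intact samples held Nts at 4.52 to 5.55 FPKM and Tac1 at 128 to 152 FPKM, below every MACS-sorted sample in both cases. Nppb and Sst, with 0.37 (adjusted p = 0.42) and 0.66 (adjusted p = 0.25), and Calca, Calcb, Adcyap1 and Gal, with -0.0685, 0.36, 0.33 and -0.23, did not pass the test without that sample. Of the itch neuron markers, Osmr was higher in MACS-sorted than in intact DRG with all samples, with a difference of 0.96 on the log2 scale (standard error 0.231, adjusted p = 0.010), whereas Il31ra and Cysltr2, with 0.42 and 0.37, did not pass the test. Without intact replicate 1 the log2-fold changes were 0.90 for Osmr (adjusted p = 0.023), 0.35 for Il31ra (adjusted p = 0.49) and 0.33 for Cysltr2 (adjusted p = 0.47). They were, without MACS-sorted replicate 1, 0.70 for Osmr (adjusted p = 0.0033), 0.039 for Il31ra and 0.0334 for Cysltr2 (adjusted p = 0.87 and 0.89).

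The peptides were set beside other markers of their neurons. Among 8 markers of peptidergic nociceptors, which include Calca, Tac1 and Adcyap1, 2 were higher and 2 lower in MACS-sorted than in unsorted DRG, and 4 did not pass the test, against 18.8% of all genes higher and 27.7% lower. The 2 higher were Tac1 and Trpv1, the capsaicin receptor, with 0.48 on the log2 scale (adjusted p = 0.048), and Kit, a receptor tyrosine kinase, was one of those lower, with -1.10 (adjusted p = 0.0035). Trpv1 and Kit were named after their values were seen. Without MACS-sorted replicate 1 none of the 8 was higher and 3 were lower, against 18% and 27.2% of all genes, and Trpv1 stood at 0.35 (adjusted p = 0.11). Against the same shares of 18.8% and 27.7% with all samples, 8 of 10 markers of non-peptidergic nociceptors were higher and none lower, 10 of 10 markers of large-diameter neurons were lower, and of 8 pan-neuronal markers 3 were higher and 2 lower, with a median log2-fold change of 0.23.

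Most markers of satellite glia, Schwann cells and fibroblasts were lower in the sorted samples, in which Nppb, Nts and Sst were higher, whereas most endothelial markers did not pass the test. All 8 satellite glia markers were lower in MACS-sorted than in unsorted DRG, with a summed level of 90.1 to 205 against 2276 to 2857 FPKM and Apoe with the highest mean over all samples, whereas 27.7% of all genes were lower in this comparison. Of 7 Schwann cell markers 6 were lower, with 518 to 1198 against 1916 to 3160 FPKM, and of 7 fibroblast markers 6 were lower, with 7.65 to 32.9 against 171 to 342 FPKM and Dcn the most abundant. Of 6 endothelial markers 1 was lower, against the same 27.7% of all genes, and 5 did not pass the test. They summed to 47.8, 11.7, 40.2 and 65.6 FPKM in MACS-sorted replicates 1 to 4 against 37.3 to 50.2 FPKM in unsorted samples, with Cldn5 the most abundant. The part of this removal in the higher levels of the neuropeptide genes was not tested. Scaling of each sample to the pan-neuronal markers, which lowered every gene by 0.11 on the log2 scale in this comparison, left Nppb and Nts called and ended the calls of Sst and Tac1. With this scaling Calca passed the test as lower, without reaching the fold criterion, at -0.25 (adjusted p = 0.045), and against intact DRG it was called lower, at -0.68 (adjusted p = 0.045).

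Other neurons that could hold these peptides were also examined. Of 10 markers of sympathetic neurons, Phox2a and Hand2, which mark that lineage, were listed at 0 in all 12 samples, and Th, the most abundant, is also expressed by a class of DRG neurons. The summed level of this list was 35.6 to 51.4 FPKM in unsorted and 91.6 to 240 FPKM in MACS-sorted samples. Th alone was at 26.1 to 42.6 FPKM in unsorted and at 89.7 to 238 FPKM in MACS-sorted samples. Of the 2 members tested, Th was higher, with a difference of 2.08 on the log2 scale (adjusted p = 0.00035), and Chrna3, a subunit of nicotinic acetylcholine receptors, was lower, with -2.30 (adjusted p = 1e-05). Among all genes tested in this comparison, 18.8% were higher and 27.7% lower. The 12 spinal cord markers summed to 23.9 FPKM in intact replicate 1 to 20.2 FPKM in MACS-sorted replicate 4 and to 5.90 to 14.3 FPKM in the other samples, with the highest mean over all samples for Hoxd9 and none at 0 in every sample. Of the 3 tested in MACS-sorted against unsorted DRG, 1 was higher and 2, Aqp4 and Hoxd9, were lower, against 18.8% and 27.7% of all genes. The one higher was Mobp, a gene of oligodendrocyte myelin, at 4.05, 1.43, 5.94 and 15.3 FPKM in MACS-sorted against 0.0601 to 0.859 FPKM in unsorted samples, with a difference of 3.58 on the log2 scale (adjusted p = 0.0026), or 3.66 without MACS-sorted replicate 1. Other oligodendrocyte genes of the list, Mog, Olig1 and Olig2, were too low to be tested. In MACS-sorted samples Mog was at 0 to 0.0889 FPKM, Olig1 at 0 to 0.102 FPKM and Olig2 at 0. The part of these cells in the levels of the neuropeptide genes was not tested.

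Because Gal, Nts, Npy and Vip belong to the genes induced by axon injury, the list of these genes was compared, with the peptide genes kept in it. Of its 12 genes, 8 were tested in MACS-sorted against unsorted DRG, of which 4 were higher, 1 was lower and 3 did not pass the test, against 18.8% of all genes higher and 27.7% lower. Nts was the one peptide among those higher. In unsorted against intact DRG, 1 of the 7 tested was higher, against 14.8% of all genes, and 6 did not pass the test, and no peptide gene was higher. Without intact replicate 1, 2 of the 7 were higher, against 22.2% of all genes in that fit. These were Jun (1.74 on the log2 scale, adjusted p = 0.0026) and Atf3 (1.84, adjusted p = 0.034), named after their values were seen. Atf3 was at 4.22, 4.58, 17.4 and 24.4 FPKM in unsorted replicates 1 to 4, against 2.47 to 4.09 FPKM in intact samples. Jun was at 58.1, 60.8, 121 and 144 FPKM in the same unsorted replicates, against 24.5 to 27.3 FPKM in intact samples. Both were highest in unsorted replicates 3 and 4. Gap43, a growth cone protein and the gene of the list with the highest mean over all samples, had log2-fold changes of -0.26 and 0.01 in these comparisons (adjusted p = 0.13 and 0.92). Without MACS-sorted replicate 1, Gap43 was lower in MACS-sorted than in unsorted DRG (-0.37, adjusted p = 0.028), without being called. In MACS-sorted against intact DRG, 5 of the 8 genes tested were higher and none lower, against 14.1% and 20.6% of all genes.

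A list of 30 other neuropeptide precursors was also examined. In this list 3 of the 30, Nmb (neuromedin B), Cartpt (CART) and Penk (enkephalins), reached an average of 1 FPKM across the 12 samples, as did 50.2% of all 24490 genes, and 7 were listed at 0 in every sample, namely Tac4, Npvf, Ghrh, Galp, Pyy, Hcrt and Iapp. Nmb, with a mean of 167 FPKM over all samples, lay in the range of Calcb and Tac1. It was at 204, 227, 181 and 134 FPKM in MACS-sorted and at 151, 150, 148 and 139 FPKM in unsorted samples, so that the groups overlapped through MACS-sorted replicate 4. With all samples, none of the 3 genes passed the test in any of the comparisons. In MACS-sorted against unsorted DRG, 18.8% of all genes were higher and 27.7% lower. Cartpt stood at an unadjusted p of 0.03 in limma in MACS-sorted against unsorted and of 0.02 in MACS-sorted against intact DRG. In MACS-sorted against unsorted DRG the log2-fold changes were 0.32 for Nmb (adjusted p = 0.096), -0.70 for Cartpt (adjusted p = 0.061) and -0.47 for Penk (adjusted p = 0.38). Without MACS-sorted replicate 1, Cartpt was called lower against unsorted DRG (-0.90, adjusted p = 0.02) and against intact DRG (-1.06, adjusted p = 0.03).

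The genes that process and store the peptides were compared next. Of 16 such genes, all tested, 4 were higher and 6 lower in MACS-sorted than in unsorted DRG, near the shares of 18.8% higher and 27.7% lower among all genes, and 6 did not pass the test. Pcsk1, a proprotein convertase that cuts precursors in the dense-core vesicle, was at 7.46, 6.67, 6.56 and 5.10 FPKM in MACS-sorted and at 22.5, 24.9, 24.98 and 27.5 FPKM in unsorted samples. Its groups were far apart, and the difference was -1.95 on the log2 scale (standard error 0.118, adjusted p = 2.1e-06). Pcsk2, which encodes another convertase of these vesicles, was at 59.3, 58.3, 57.9 and 37.0 against 61.2, 60.0, 67.5 and 63.6 FPKM, so that the groups did not overlap, but its log2-fold change of -0.27 did not pass the test (adjusted p = 0.15).

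Carboxypeptidase E, the product of Cpe, trims the cut peptides, and its transcript was at 456 ± 76.6 FPKM in sorted against 414 ± 7.03 FPKM in unsorted DRG (SD, n = 4). Its log2-fold change was 0.12 (adjusted p = 0.43). Pam, whose enzyme amidates CGRP and substance P, was higher in each sorted sample than in any unsorted one, at 54.6 ± 3.25 against 47.7 ± 2.31 FPKM (SD, n = 4), a difference of 0.19 on the log2 scale (standard error 0.0668, adjusted p = 0.037). Without MACS-sorted replicate 1 it was also 0.19 and no longer passed (adjusted p = 0.071), and 2 of the 16 genes were then higher and 6 lower, against 18% and 27.2% of all genes in that fit. Qpct, a glutaminyl cyclase that closes the amino end of neurotensin, fell from 2.12, 2.51, 1.41 and 2.63 FPKM in unsorted to 0.63, 0.65, 0.72 and 0.62 FPKM in MACS-sorted samples, a difference of -1.55 on the log2 scale (standard error 0.231, adjusted p = 0.00045).

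Scg3, a granin of the vesicle membrane, had the highest mean of the 16 genes over all 12 samples and was at 673, 781, 654 and 518 FPKM in MACS-sorted against 353, 345, 319 and 318 FPKM in unsorted samples. The groups did not overlap, with a difference of 0.96 on the log2 scale (standard error 0.120, adjusted p = 0.00014). Cadps2, which primes dense-core vesicles for release, was lower in all MACS-sorted samples, with a difference of -1.23 on the log2 scale (standard error 0.191, adjusted p = 0.00058).

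In unsorted against intact DRG, 9 of the 16 processing genes were higher and none lower, against 14.8% of all genes higher, with a median log2-fold change of 0.33. In the same comparison 4 of the 8 pan-neuronal markers were higher, with a median of 0.31, and 7 of the 10 large-diameter neuron markers, with a median of 0.61, and none of either list was lower. The part of these neurons in the levels of the processing genes was not tested. Chgb and Chga, the chromogranins, had the largest log2-fold changes, 0.84 (standard error 0.145, adjusted p = 0.0067) and 0.71 (standard error 0.137, adjusted p = 0.0094). Chgb was at 16.8, 25.9, 24.99 and 27.5 FPKM in intact and at 43.3, 41.3, 44.0 and 38.8 FPKM in unsorted samples, without overlap. In MACS-sorted samples it was back at 21.1 to 24.0 FPKM. When intact replicate 1 was left out, 10 of the 16 were higher and none lower, against 22.2% of all genes higher and 13.6% lower in that fit, with 0.68 for Chgb and 0.57 for Chga.

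**Figure D5:**
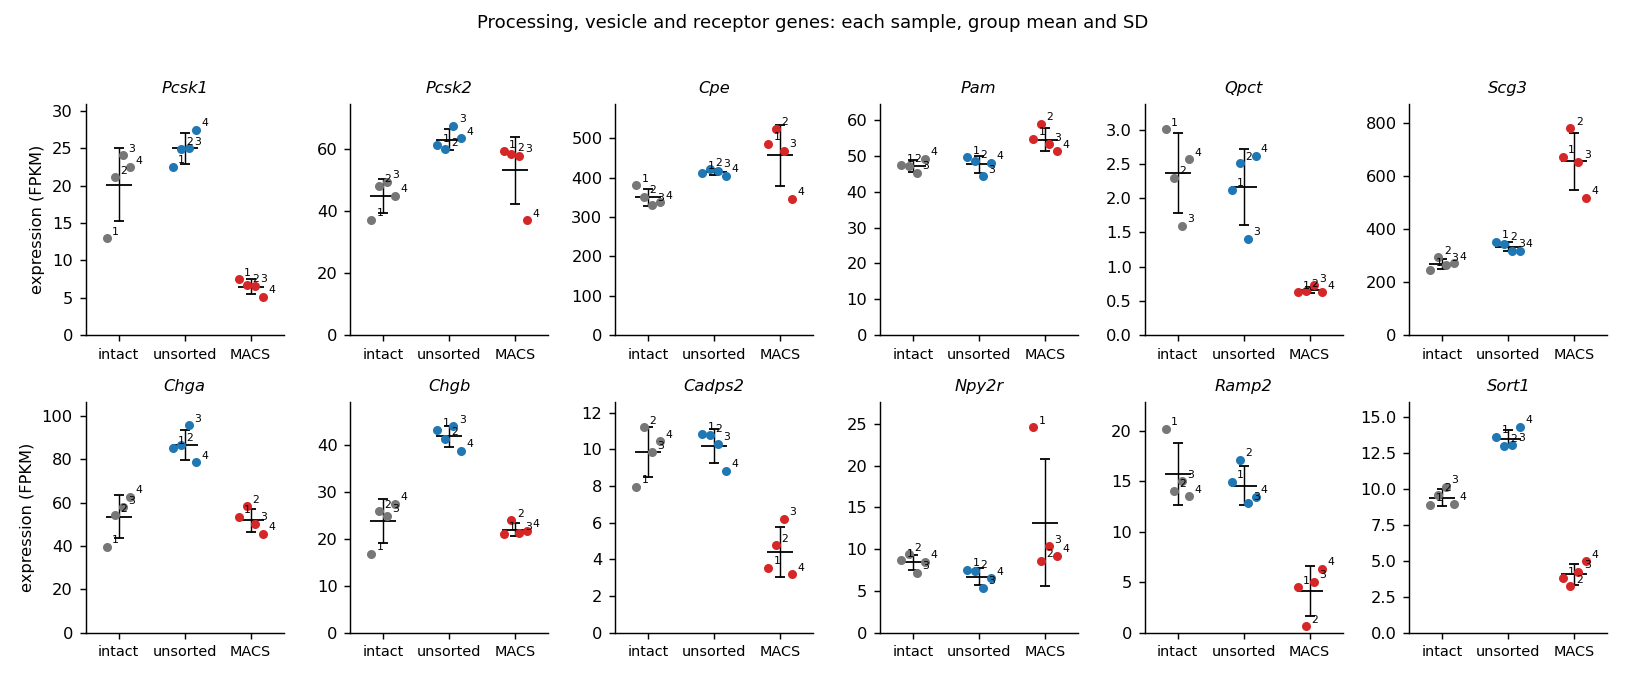
Expression in FPKM (linear axes from 0) of 9 processing and vesicle genes and the receptor genes Npy2r, Ramp2 and Sort1 in each sample, with the replicate number beside each point and the group mean ± SD as bars. Pcsk1, Qpct, Cadps2, Ramp2 and Sort1 are lower and Scg3 and Npy2r higher in each sorted sample than in any unsorted one, and Chga and Chgb are highest in unsorted DRG.

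Of 29 genes of receptors for these peptides, 12 could be tested in MACS-sorted against unsorted DRG, of which 2 were higher, 2 lower and 8 did not pass the test, shares no larger than the 18.8% higher and 27.7% lower among all genes. Npy2r, the Y2 receptor of neuropeptide Y, was at 24.6, 8.63, 10.4 and 9.17 FPKM in MACS-sorted and at 7.56, 7.34, 5.35 and 6.49 FPKM in unsorted samples. All MACS-sorted samples were above all unsorted samples, most of all replicate 1, and the difference was 0.84 on the log2 scale (standard error 0.299, adjusted p = 0.043), or 0.49 without that replicate (adjusted p = 0.017). Crcp, an accessory protein of the CGRP receptor, had a log2-fold change of 0.35 (adjusted p = 0.048), which no longer passed without MACS-sorted replicate 1 (0.27, adjusted p = 0.12).

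Of the 12 receptor genes tested, Ramp2 and Sort1 were lower in MACS-sorted than in unsorted DRG. Ramp2, which pairs with Calcrl in the adrenomedullin receptor, was at 4.49, 0.65, 5.03 and 6.36 FPKM against 14.9, 17.1, 12.8 and 13.4 FPKM, a difference of -2.16 on the log2 scale (standard error 0.579, adjusted p = 0.012). Sort1, a sorting receptor that binds neurotensin, was at 3.78, 3.22, 4.24 and 4.97 FPKM against 13.6, 13.0, 13.1 and 14.3 FPKM, a difference of -1.73 on the log2 scale (standard error 0.125, adjusted p = 5.8e-06). Neither gene overlapped between the groups.

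Calcrl, the shared subunit of the CGRP and adrenomedullin receptors, was at 1.94, 0.838, 2.11 and 3.67 FPKM in MACS-sorted and at 3.595, 3.66, 2.07 and 3.17 FPKM in unsorted samples, and did not pass the test (adjusted p = 0.18). Ramp1, which makes Calcrl a CGRP receptor, was at 0.211 to 0.447 FPKM in unsorted and at 0 to 0.114 FPKM in MACS-sorted samples, with 0.766 to 2.24 FPKM in intact samples, and stayed under the filter in every comparison. Adcyap1r1, the PACAP receptor, was at 1.05 to 1.14 FPKM in unsorted and at 0 to 0.0338 FPKM in MACS-sorted samples and was not tested in that comparison. For both genes the MACS-sorted samples lay below all others.

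The other receptors fixed for naming were low or did not pass the test. Galr1, a galanin receptor, at 3.58 ± 1.67 against 3.95 ± 0.62 FPKM in MACS-sorted and unsorted DRG (SD, n = 4), Sstr2, a somatostatin receptor, at 2.59 ± 1.66 against 2.29 ± 0.37 FPKM, and Npy1r, the Y1 receptor, at 5.44 ± 1.21 against 6.78 ± 1.25 FPKM did not pass the test. Npr1, the receptor of natriuretic peptides of the A and B type, was at 0.773 ± 0.316 against 1.30 ± 0.218 FPKM, with a difference of -0.77 on the log2 scale (standard error 0.335, adjusted p = 0.086). Tacr1, the substance P receptor, was at 0 to 0.0904 FPKM over all samples, and the neurotensin receptors Ntsr1 and Ntsr2 had means over all samples of 0.152 and 1.23 FPKM. Calcr and Galr3 were listed at 0 in every sample.

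In unsorted against intact DRG, 15 receptor genes were tested, of which 3 were higher, 1 lower and 11 did not pass the test, near the 14.8% higher and 7.79% lower among all genes. Calcrl and Galr1 had the largest log2-fold changes of those that passed, 0.67 (standard error 0.179, adjusted p = 0.029) and 0.66 (standard error 0.159, adjusted p = 0.020). Calcrl was at 1.73 to 2.11 FPKM in intact and Galr1 at 2.101 to 3.05 FPKM, and both groups overlapped with the unsorted samples.

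Finally, the genes whose levels followed each peptide most closely over the 12 samples were listed by Pearson's r of log2(FPKM + 0.1) among 12247 genes. The points share their libraries, with intact replicate 1 and MACS-sorted replicate 1 at the ends, so r is a description only. For Sst the nearest genes were Npy2r (r = 0.94) and Fam118a (0.93), for Nppb Pdcl (0.94) and Snhg6 (0.94), and for Nts Hsbp1l1 (0.96) and Ankra2 (0.96). Calca was nearest to Itfg1 (0.96) and Pebp1 (0.96), Calcb to Sft2d1 (0.98) and Psme1 (0.95), and Tac1 to Rpl35a (0.97) and Tcea1 (0.95). Adcyap1 was nearest to Steap3 (0.93) and Gfra3 (0.91), and Gal to Slc25a14 (0.96) and Zcchc12 (0.95). Among the peptides themselves the highest values were 0.88 for Nppb with Nts, 0.86 for Sst with Nts and 0.86 for Calca with Gal.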

How the data were processed

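RNA was taken from 4 intact, 4 unsorted and 4 MACS-sorted samples of dorsal root ganglia, and polyadenylated RNA was sequenced with 100 bp reads. The deposited values are FPKM per gene, which the authors made by aligning reads to mm10 with TopHat2 (2 multiple alignments allowed), merging lanes with SAMtools and quantifying with Cufflinks 2.1.1. The authors' own test needs the aligned reads, so limma 3.58.1 in R 4.3.3 was used here on log2(FPKM + 0.1), with an intensity trend, 8 samples per comparison, a filter of a mean of 1 FPKM and Benjamini-Hochberg adjustment. Calls required an adjusted p under 0.05, group means differing by over 0.5 on the log2 scale and over 5 FPKM in the group with more. Fold changes on this scale understate the change of genes near 0.1 FPKM.

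The depth of each sample was inferred from steps between low FPKM values, with an assumed fragment length of 150 bases. Samples of a group came from separate mice or pools, and nothing in the sources used here ties a replicate number to another group. The genes and lists were chosen with earlier results of these data known. Named were the 10 neuropeptide genes, the itch neuron markers, a fixed set of enzymes and receptors, the genes of each peptide list with the largest changes that passed (4 upon sorting and 2 upon dissociation), and the most abundant gene and those at 0 of each marker list. Some genes that this rule or these lists hold are not reported here. Alternatives were other pseudocounts, filters, scalings, criteria and fits, and each sample left out in turn. Counts of the lists without intact replicate 1 or MACS-sorted replicate 1 were added after seeing the data. Promoter sequences are from RefSeq, transcript sequences and lengths are from GENCODE, and scripts were tested on simulated data. Python 3.11.15 and matplotlib 3.10.9 drew the plots.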

Additional observations from a re-analysis of the deposited data

Results flagged for a closer look

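In 5 of 30 groups of 4 samples, a single sample lay far from the others by Dixon's criterion at the 95% level. Vip in MACS-sorted DRG, at 0 in every sample, is counted among the 30 but could not be flagged. Chance gives about 1 in 20 groups that are independent. The groups share libraries, and 4 of the 5 are of intact replicate 1, so this rate cannot be set against the count of 5. In intact replicate 1 this held for Calca at 1815 FPKM (941 to 1022 in the other intact samples), for Tac1 at 321 FPKM (128 to 152), for Nppb at 45.9 FPKM (17.3 to 20.3) and for Nts at 17.7 FPKM (4.52 to 5.55). In MACS-sorted replicate 1 it held for Sst at 63.1 FPKM (17.5 to 19.9 in the other MACS-sorted samples).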

How the results depend on the processing

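In MACS-sorted against unsorted DRG, Nppb and Nts were called under all 14 alternatives, with adjusted p from limma of 0.0027 to 0.01 and 0.00032 to 0.0073. Sst was called under 9 and Tac1 under 6, so that 2 neuropeptide genes were called higher, in place of 4, with a pseudocount of 0.01, without a filter, without a trend or with scaling to pan-neuronal markers. Leaving out 1 sample gave 2 to 5. The count of 2 came without unsorted replicate 3 and without MACS-sorted replicate 2. Gal turned to 0.0346 with median-ratio factors, 0.0242 with quantile normalization and 0.01 without red blood cell genes, and ranged from -0.18 to 0.30 with 1 sample left out. Of all genes, 981 were called higher and 1505 lower. Pan-neuronal scaling gave 651 higher, a log2 criterion of 1 gave 260 and 879, and a mean criterion of 1 FPKM gave 2352 lower.

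In unsorted against intact DRG, Nppb was called lower under all 14 alternatives and all 8 samples left out, and the count of neuropeptide genes called lower was 2 with pan-neuronal scaling. Adcyap1 turned to -0.0296 (quantile), -5e-04 (red blood cell genes removed) and -0.25 (pan-neuronal). With 1 sample left out, Adcyap1 ranged from -0.0838 to 0.10, Calca from -0.25 to 0.0653 and Tac1 from -0.33 to 0.11. Of all genes, 531 were called higher and 342 lower. Higher calls were 343 without red blood cell genes, 109 with pan-neuronal scaling and 42 at a log2 criterion of 1, and lower calls 1404 with that scaling, 123 at that criterion and 665 at a mean of 1 FPKM. Lower calls ranged from 187 to 334 with 1 sample left out.

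In MACS-sorted against intact DRG, 922 genes were called higher and 1313 lower. Neuropeptide genes called higher ranged from 0 to 2 with 1 sample left out, 2 without intact replicate 1. Pan-neuronal scaling gave 1 neuropeptide gene called lower, 228 genes higher and 3302 lower, and turned Calcb to -0.30, Tac1 to -0.0302, Adcyap1 to -0.13 and Nppb to -0.33. A log2 criterion of 1 gave 186 higher and 825 lower, and a mean of 1 FPKM 2206 lower. With 1 sample left out, Calcb ranged from -0.0812 to 0.36 and Nppb from -0.27 to 0.37. Pan-neuronal scaling shifted every gene by -0.11, -0.27 and -0.38 in the 3 comparisons. The cause of these changes was not tested.

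Samples of the same replicate number correlated in their deviations at -0.14 to 0.07. Single samples that stand apart weigh on these values, so they cannot show whether such samples share more than a number. With the replicate block, Nts was called higher in MACS-sorted against intact DRG (adjusted p = 0.0099, a count of 1), and Tac1 no longer passed in MACS-sorted against unsorted DRG (adjusted p = 0.063). Depth limits Npy and Vip.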
